A study of Arabidopsis thaliana with 16 samples.

Results

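The cytosolic ribosomal proteins of Arabidopsis thaliana were taken as the 154 of 22810 probe sets on the ATH1 array whose deposited gene title names a 60S or a 40S ribosomal protein. AT5G08180 was to be left out by rule, and no matching title carried it. Of the 154 probe sets, 89 had a 60S and 65 a 40S title, and together they named 172 genes in 72 protein families. The choice rested on titles and used no measured value. In 2 cases, L2 (AT2G07715/ATMG00560) and L5 (AT2G07725/ATMG00210), the probe set named a gene of the mitochondrial genome, and neither carried a cytosolic ribosome term in the deposited annotation. These 2 were set apart. A cytosolic ribosome term stood beside 150 of the 152 nuclear probe sets, 87 of the large subunit in 41 families and 65 of the small subunit in 30 families.

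Leaves of FG and WT plants, grown under SD or LD, in space or on the ground, were measured on 16 arrays, with 2 per group. FG plants were a cross that carried FT and GFP, with a heat-inducible promoter of an HSP gene in front of either, and WT plants were Columbia (Col-0). SD was 8 h light and 16 h dark and LD was 16 h light and 8 h dark. Every plant under SD, FG and WT, in space and on the ground, was also heat-shocked early in the flight period, and no plant under LD was, so SD against LD also set heated against unheated plants. The 8 groups were therefore FG-SD-sp (heated FG plants under SD in space), FG-SD-gr (the same on the ground), FG-LD-sp and FG-LD-gr (unheated FG plants under LD), and WT-SD-sp, WT-SD-gr, WT-LD-sp and WT-LD-gr, the corresponding WT plants. All were loaded at 20 days of age, kept for 12 days and 15 h in growth chambers set to 22 °C, and sampled as 4 expanded rosette leaves from 2 plants. There was 1 flight unit, harvested after landing, and 1 ground unit, so that environment cannot be told apart from the unit, the handling or the hour of harvest. The p-values measure only the spread between the 2 samples within each group, pooled over the 8 groups and moderated across probe sets.

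Each cytosolic ribosome joins a large (60S) subunit, which forms peptide bonds, to a small (40S) subunit, which holds and decodes the mRNA. In Arabidopsis most of these proteins are encoded by a small family of paralogs, and plants that lack 1 paralog often show narrow, pointed leaves. Making ribosomes takes a large share of the resources of a growing leaf, and the transcripts of the whole set are known to vary together with sugar, light and the activity of the TOR kinase.

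A signal here is the MAS 5.0 value of a probe set on an array, which the authors scaled to a common trimmed mean, and signals under 75 were raised to 75. Of the 152 nuclear probe sets, 137 (81 of the 60S and 56 of the 40S subunit) had both arrays of some group above 75 and entered the limma fit. Calls needed an adjusted p (Benjamini-Hochberg, over all 14286 probe sets tested) under 0.05 together with a 2-fold change or more. The tested members were well expressed, since 132 of them exceeded 75 on all 16 arrays, and 1 member, S11-2, passed only through groups in space. The other 15 (6 of the 60S and 9 of the 40S subunit) were not tested. Of these, 10 stayed at or under 75 on all 16 arrays, 6 had a present call on at least 1 array, and the highest signal was 109. The members under 75 throughout included L27a-1 (AT1G12960), S15-5 (AT1G33850/AT5G43640), S15a-3 (AT2G39590), L18-1 (AT2G47570) and L37a-1 (AT3G10950). The highest signal in these 5 was 52.8, for L37a-1 in FG-LD-sp. A single gene and title stood behind 105 of the 137 tested probe sets. The others named several genes or can bind several paralogs, so values of near-identical paralogs may be mixed in them.

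Over the whole array, present calls covered 12560 to 13722 probe sets in space and 11759 to 13042 on the ground, and the mean log2 signal of the spiked-in control probe sets was 11.06 to 11.25 in space and 11.51 to 11.94 on the ground. The median log2 fold change of all probe sets tested lay between 0.05 and 0.11 in the 4 comparisons of space with ground. After scaling to the spike-in probe sets it was 0.49 to 0.66, so changes below are relative to the scaling used. What the spike-in difference between the environments reflects was not tested. Leaf markers were present in every group, with a summed signal over 4 probe sets of 39770 to 70550 in space and 9742 to 69210 on the ground, and the shoot meristem markers STM, CLV3 and WUS had no present call on any array. Replicates of FG under SD in space, and of FG under LD on the ground, stood far apart in the members, as given next.

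Under the LD conditions the ribosomal protein transcripts were higher in space in both genotypes and both subunits, by about 2 times in the median. The median signal of the tested 60S members was 4368 and 4686 in FG-LD-sp, against 2635 and 1243 in FG-LD-gr. In WT it was 3768 and 4674 in WT-LD-sp, against 2140 and 1805 in WT-LD-gr. In each genotype both LD arrays in space lay above both on the ground, and FG-LD-gr held the lowest array of the 16.

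The 40S members followed the same order. Their median signal was 4840 and 5208 in FG-LD-sp, against 2628 and 1256 in FG-LD-gr, and 3769 and 4953 in WT-LD-sp, against 2019 and 1693 in WT-LD-gr. On each of the 16 arrays the medians of the 2 subunits lay close together, with a 60S minus 40S difference of −0.18 to 0.14 on the log2 scale, so that a high array was high in both. Leaf markers moved with the members under LD, with a summed signal of 62900 to 70550 in FG-LD-sp, against 27920 to 57400 in FG-LD-gr, and of 63370 to 70220 in WT-LD-sp, against 18230 to 47050 in WT-LD-gr. The summed signal of flower markers (4 genes) ran the other way, at 327 to 347.5 in FG-LD-sp, against 399.9 to 687 in FG-LD-gr, and 69.4 to 114 in WT-LD-sp, against 176.5 to 364 in WT-LD-gr. These sums were carried largely by PI (AT5G20240), at 251 and 248.5 in FG-LD-sp, against 654 and 322 in FG-LD-gr. In WT it read 59 and 75.2 in WT-LD-sp, against 261 and 158 in WT-LD-gr. AP3 (AT3G54340) and AP1 (AT1G69120) had no present call on any array, and AG (AT4G18960) had 1. The part of leaf and flower cells in the result was not tested.

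Under SD the 60S medians were 3126 and 2921 in WT-SD-sp, against 1488 and 2061 in WT-SD-gr, and those of the 40S members were 3373 and 3092 in WT-SD-sp, against 1532 and 2194 in WT-SD-gr. In FG-SD-sp the 60S medians were 1480 and 3254, against 1681 and 2552 in FG-SD-gr. The FG arrays under SD overlapped, with the lower array in space beneath both on the ground and the higher one above both. The 40S members gave 1680 and 2958 in FG-SD-sp, against 1770 and 2572 in FG-SD-gr. The leaf marker sums under SD overlapped, at 39770 to 51890 in FG-SD-sp, against 9742 to 43790 in FG-SD-gr. In WT they were 45010 to 46460 in WT-SD-sp, against 23680 to 69210 in WT-SD-gr. The flower marker sums were 377 to 568 in FG-SD-sp, against 164 to 184 in FG-SD-gr. They overlapped in WT, at 143 to 177 in WT-SD-sp, against 87.6 to 377 in WT-SD-gr. In bulk leaves, fewer cells of a type and less RNA per cell cannot be told apart. The share of the summed signal of an array that came from the members was 1.81% to 4.54% in space and 1.52% to 2.83% on the ground.

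**Figure D1:**
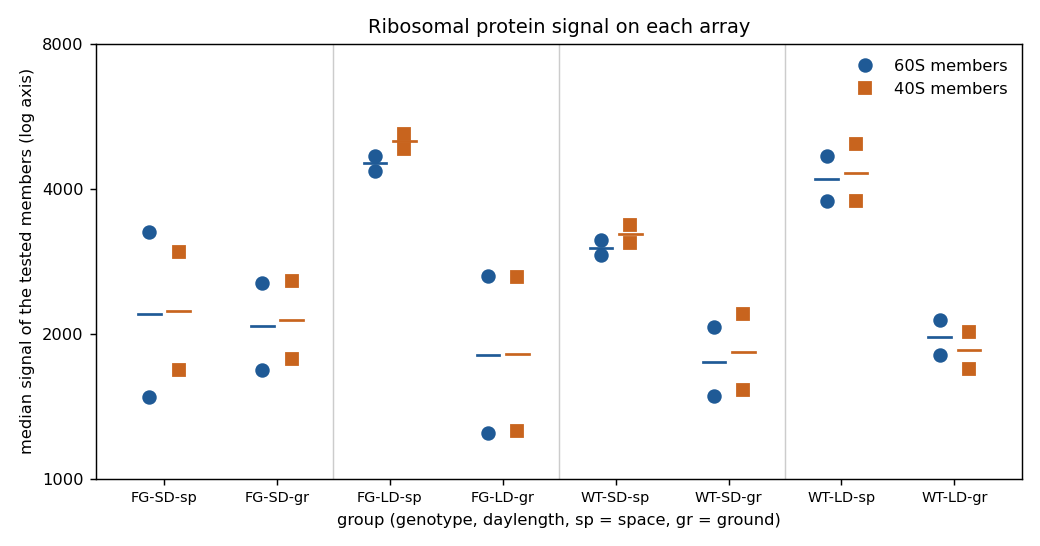
Median signal (log axis) of the 81 tested 60S members (circles) and the 56 tested 40S members (squares) on each of the 16 arrays, by group, with a bar at the mean log2 of the 2 arrays. Arrays in space stand above those on the ground in FG-LD, WT-LD and WT-SD, whereas in FG-SD the arrays of space (1480 and 3254 for 60S) span those of the ground (1681 and 2552).

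Tested member by member, 53 of the 137 rose in space in FG under LD (35 of the 60S and 18 of the 40S subunit, 38.7%), where 9.46% of all probe sets were called higher, and none fell, where 4.49% of all were called lower. In WT under LD 38 rose (27 and 11, 27.7%), against 10.9% of all probe sets, and none fell, against 5.79%. At an unadjusted p under 0.05, 99 members were higher and 0 lower in FG (19.6% and 11.7% of all probe sets), and 78 higher and 1 lower in WT (21.4% and 13.2% of all). The median log2 fold change was 1.26 for 60S and 1.18 for 40S members in FG, and 1.09 and 0.97 in WT, against medians of 0.07 and 0.09 over all probe sets. Estimates were above 0 for 134 members in FG and 131 in WT, where 54.1% and 54.3% of all probe sets were. In both genotypes together, 34 members were called in each and 57 in at least 1, where 6.46% and 13.9% of all probe sets were called higher in both and in at least 1. S11-2 is among the called members, and since it passed the filter only through groups in space, where it was high, its difference from groups under 75 follows from the filter. Without it 52 were called in FG and 37 in WT. How many members were called hung on single arrays. In FG the count was 8 without FG-LD-gr replicate 2, 10 and 9 without FG-LD-sp replicate 1 or 2, and 34 without either WT-SD-sp array. In WT it was 5 and 2 without WT-LD-sp replicate 1 or 2, 19 and 3 without WT-LD-gr replicate 1 or 2, 21 without either WT-SD-sp array, and 25 without either FG-LD-sp array.

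**Figure D2:**
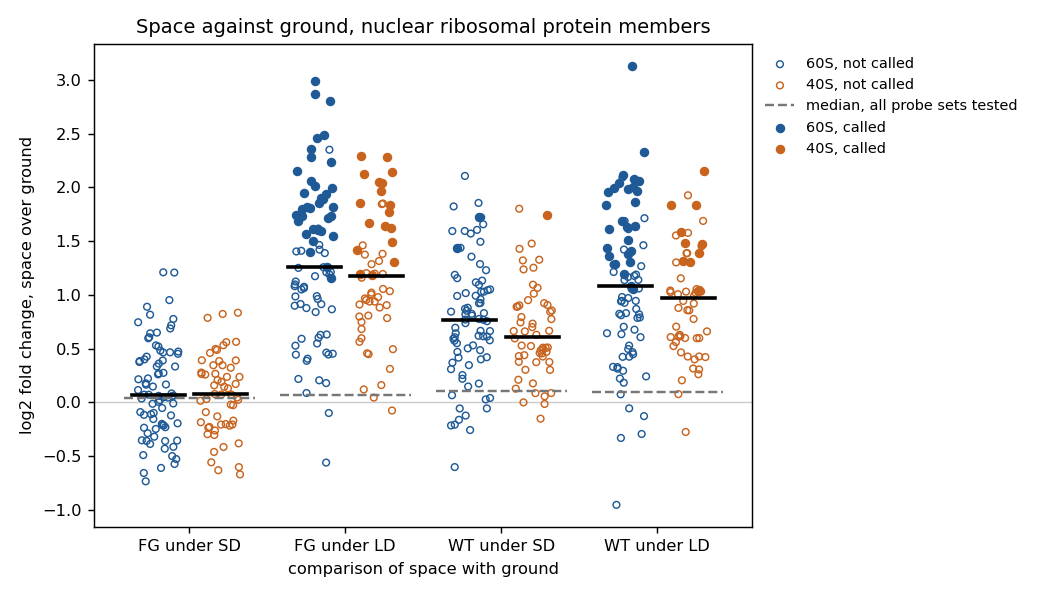
Log2 fold change, space over ground, of each of the 137 tested members in the 4 comparisons, with 60S members in blue and 40S members in orange, filled where called. Solid bars mark the subunit medians and dashed lines the median of all probe sets tested. Filled points number 0 in FG under SD and 53 under LD, and 3 in WT under SD and 38 under LD.

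Among large-subunit proteins, L9-2 (AT4G10450) had the highest estimates. L9 sits near the base of the stalk where elongation factors dock. Signals were 2543 and 2665 in FG-LD-sp, against 788 and 136 in FG-LD-gr, a log2 fold change of 2.99 ± 0.81 (SE, n = 2 each, limma adjusted p = 0.0328). In WT they were 1886 and 2817 in WT-LD-sp, against 377 and 183 in WT-LD-gr (3.13 ± 0.81, limma adjusted p = 0.0233). The ground arrays of FG differed more from each other than the arrays in space did. Under SD, L9-2 gave 362 and 1314 in FG-SD-sp, against 254 and 544 in FG-SD-gr, and 1256 and 1111 in WT-SD-sp, against 189 and 398 in WT-SD-gr, neither of which was called (adjusted p = 0.663 and 0.187).

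L37-1 (AT1G15250), a small zinc-binding protein of the large subunit, read 742 and 823 in FG-LD-sp, against 102 and 124 in FG-LD-gr (2.80 ± 0.36, adjusted p = 0.00107), and 671 and 902 in WT-LD-sp, against 201 and 169 in WT-LD-gr (2.08 ± 0.36, adjusted p = 0.00422). Under SD it was 531 and 478 in WT-SD-sp, against 153 and 152 in WT-SD-gr, a call as well (1.73 ± 0.36, adjusted p = 0.0417). In FG under SD it read 205 and 467 in FG-SD-sp, against 168 and 107 in FG-SD-gr, with no overlap but no call (1.21 ± 0.36, adjusted p = 0.142). Its paralog L37-3 (AT3G16080) read 6030 and 6473 in FG-LD-sp, against 1606 and 798 in FG-LD-gr (2.46 ± 0.43), and 4892 and 6652 in WT-LD-sp, against 2140 and 1880 in WT-LD-gr (1.51 ± 0.43). Both were called under LD in both genotypes.

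L36-1 (AT2G37600) read 1101 and 771 in FG-LD-sp, against 143 and 111 in FG-LD-gr (2.87 ± 0.49, adjusted p = 0.00491), and 639.5 and 914 in WT-LD-sp, against 195 and 188 in WT-LD-gr (2.00 ± 0.49, adjusted p = 0.0179). No array overlapped between the environments. L29-2 (AT3G06680) rose in FG, with 3031 and 2443 in FG-LD-sp, against 788 and 297 in FG-LD-gr (2.49 ± 0.54), whereas its estimate in WT of 1.63 ± 0.54 was not called (adjusted p = 0.0577). L17-1 (AT1G27400), whose protein lines the tunnel through which the new peptide leaves, gave 4051 and 4686 in FG-LD-sp, against 1980 and 432 in FG-LD-gr (2.24 ± 0.65), and 2974 and 4620 in WT-LD-sp, against 804 and 676 in WT-LD-gr (2.33 ± 0.65). L15-2 (AT4G17390), L13a-1 (AT3G07110) and L13a-4 (AT5G48760) rose in both genotypes under LD, with estimates of 1.94, 2.15 and 1.85 in FG and 2.11, 2.06 and 1.97 in WT. L13a-4 was also called in WT under SD, with 924 and 870 in WT-SD-sp, against 280 and 390 in WT-SD-gr (1.44 ± 0.29, adjusted p = 0.0404).

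Among small-subunit proteins, S17-3 (AT3G10610) was called in 3 of the 4 comparisons. S17 belongs to the head of the small subunit. It read 1590 on both arrays of FG-LD-sp, against 431 and 244 in FG-LD-gr (2.29 ± 0.37, adjusted p = 0.00361), and 1114 and 1554 in WT-LD-sp, against 517 and 429 in WT-LD-gr (1.48 ± 0.37, adjusted p = 0.0191). In WT under SD it read 1152 and 1093 in WT-SD-sp, against 337 and 333 in WT-SD-gr (1.74 ± 0.37, adjusted p = 0.0428). In FG under SD the arrays overlapped, at 484 and 1027 in FG-SD-sp, against 557 and 745 in FG-SD-gr.

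S3a-1 (AT3G04840), a protein of the platform side that contacts the mRNA exit, read 5590 and 5403 in FG-LD-sp, against 1592 and 795 in FG-LD-gr (2.29 ± 0.41), and 5007 and 5284 in WT-LD-sp, against 1935 and 1068 in WT-LD-gr (1.84 ± 0.41). S12-2 (AT2G32060) was called in both genotypes as well, at 2.04 ± 0.56 in FG and 1.83 ± 0.56 in WT. S2-4 (AT3G57490), S19-3 (AT5G61170) and S30 (AT2G19750) rose in FG with estimates of 2.15, 2.05 and 2.12, and their WT estimates of 1.69, 1.55 and 1.03 were not called (adjusted p = 0.0696, 0.107 and 0.0687). The reverse held for S4-2 (AT5G07090), which gave 2138 and 2802 in WT-LD-sp, against 690 and 440 in WT-LD-gr (2.15 ± 0.61, adjusted p = 0.0329), and an uncalled 1.84 ± 0.61 in FG (adjusted p = 0.0635). None of these pairs of estimates passed the test of a difference between genotypes, given further on. S4-3 (AT5G58420) was called in both, at 1.64 ± 0.45 in FG and 1.47 ± 0.45 in WT.

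**Figure D3:**
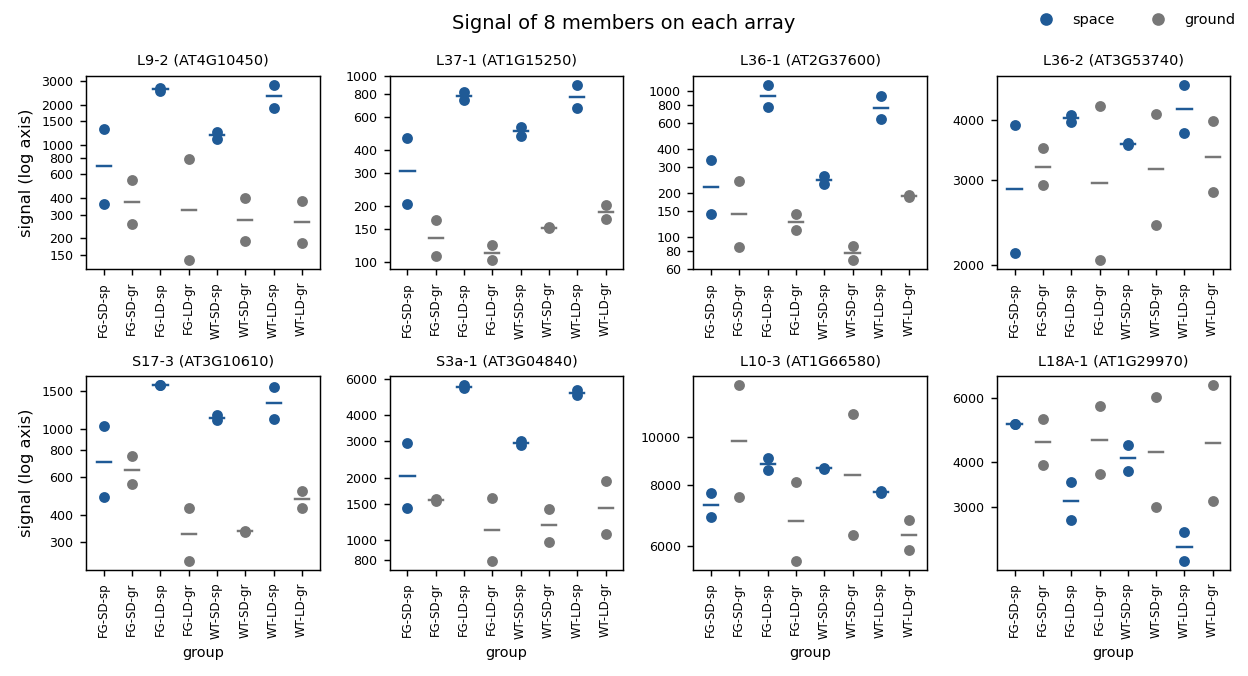
Signal (log axis) of 8 members on each array, by group, with space in blue and ground in grey and a bar at the mean log2 of 2 arrays. L9-2, L37-1, L36-1, S17-3 and S3a-1 separate space from ground under LD, whereas L36-2 and L10-3 were not called under LD. L18A-1 has lower signals in space than on the ground in WT under LD without a call.

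Under SD, 3 of 137 members rose in WT (2.19%), namely L37-1, L13a-4 and S17-3, where 1.25% of all probe sets were called higher. None fell, where 0.616% of all were called lower, and at an unadjusted p under 0.05 the counts were 40 higher and 1 lower (13.7% and 6.05% of all). The medians were 0.77 for 60S and 0.61 for 40S members, with 126 estimates above 0 (57.1% of all probe sets). No member was called in FG under SD, where 0.609% of all probe sets were called higher and 0.308% lower. At an unadjusted p under 0.05 limma gave 4 higher and 0 lower there (9.82% and 5.81% of all), and the methods' t-test, the unadjusted test that the study's methods name, gave 0 calls. Medians were 0.07 and 0.08, with 83 estimates above 0 and 54 below (57% of all probe sets were above 0), and the smallest adjusted p was 0.142. The 60S median of FG under SD was 0.55 without FG-SD-sp replicate 1 and −0.35 without replicate 2, and it was −0.17 and 0.32 without FG-SD-gr replicate 1 or 2. The 40S median was 0.53 without FG-SD-sp replicate 1 and −0.37 without replicate 2, and it was −0.12 and 0.36 without FG-SD-gr replicate 1 or 2. The 3 calls in WT became 0 without either array of FG-LD-sp, WT-LD-sp or WT-SD-sp, or without WT-SD-gr replicate 1, and 6 without either array of FG-LD-gr.

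Whether the response to space depended on daylength was tested as an interaction. In FG, 136 of 137 members had a lower estimate under SD than under LD, with medians of −1.23 for 60S and −0.998 for 40S members, where 48.2% of all probe sets had an estimate above 0. Yet no member was called (0.665% of all probe sets were called lower), the smallest adjusted p was 0.0679 (S11-2, AT4G30800, whose place follows in part from the filter) and 0.0893 without S11-2, and 46 members reached an unadjusted p under 0.05 on the lower side, against 8.83% of all probe sets. Without FG-SD-gr replicate 1, 3 members were called, and without either WT-LD-sp array 1 was. In WT the medians were −0.29 and −0.24, with 109 estimates below 0, no member called (0.574% of all were called lower), and 1 at an unadjusted p under 0.05 on the lower side (6.17% of all), where 49.8% of all probe sets had an estimate above 0. The genotypes, FG against WT, did not differ by a call in their response under SD (0 called, 3 lower at an unadjusted p under 0.05 against 2.41% of all, medians −0.70 and −0.61) or under LD (0 called, 2 higher at an unadjusted p under 0.05 against 3.28% of all, medians 0.21 and 0.24), where 0% and 0.035% of all probe sets were called higher and 0% lower. Estimates of this difference were below 0 for 129 of 137 members under SD and above 0 for 103 under LD. The medians over all probe sets were −0.05 and −0.02.

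SD and LD were then compared directly. In space, 5 of 137 members were lower under SD in FG (3.65%), where 3.09% of all probe sets were called lower, and 71 were lower at an unadjusted p under 0.05 (12.4% of all). The medians were −0.98 and −0.86. L36-1 read 142 and 336 in FG-SD-sp, against 1101 and 771 in FG-LD-sp (−2.07 ± 0.49, adjusted p = 0.0391). L34-1 (AT1G26880) read 1173 and 2653 in FG-SD-sp, against 5430 and 4938 in FG-LD-sp (−1.55 ± 0.38), and L13a-3 (AT4G13170) read 409 and 779 in FG-SD-sp, against 1636 and 1642 in FG-LD-sp (−1.54 ± 0.33). S30 read 446 and 879 in FG-SD-sp, against 1832 and 1736 in FG-LD-sp (−1.51 ± 0.36).

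S11-2 read 2.2 and 78.3 in FG-SD-sp, against 299.7 and 252 in FG-LD-sp (−1.84 ± 0.25 after the floor, adjusted p = 0.0028). It was also the only member called in WT in space, with 35.7 and 53.3 in WT-SD-sp, against 145 and 242 in WT-LD-sp, hence at least 2.50-fold lower under SD (−1.32 ± 0.25, adjusted p = 0.0188), where 2.19% of all probe sets were called lower. S11-2 was under 75 on both arrays of FG-SD-gr, WT-SD-sp, WT-SD-gr and WT-LD-gr, and it rose in space under LD by 1.67 ± 0.25 in FG and at least 2.50-fold in WT. Its place here too follows from the filter it passed through space alone, and without it 4 members were called lower under SD in FG in space and 0 in WT. The S11 protein binds the rRNA of the small subunit. Medians in WT in space were −0.52 and −0.39, and 17 members were lower at an unadjusted p under 0.05 (9.78% of all). The 5 calls in FG were 1 without FG-SD-sp replicate 1 or either FG-LD-sp array, 2 without either WT-SD-sp array, 3 without either WT-LD-sp array, 11 without either FG-LD-gr array and 21 without FG-SD-sp replicate 2. The call in WT was lost without either WT-SD-sp array and without WT-LD-sp replicate 2.

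On the ground, SD against LD called no member in either genotype, where 0% of all probe sets were called in FG, and 0% higher and 0.021% lower in WT. At an unadjusted p under 0.05 limma gave 4 higher in FG (3.93% of all) and 3 lower in WT (4.37%), and the methods' t-test gave 0 in FG and 1 in WT. FG against WT called no member under SD in space, under SD on the ground, under LD in space or under LD on the ground, where 0.014%, 0.014%, 0% and 0% of all probe sets were called higher and 0%, 0%, 0.007% and 0.028% lower. At an unadjusted p under 0.05, under SD no member differed in space (1.18% of all were higher and 1.56% lower), and 3 were higher and 1 lower on the ground (5.37% and 4.63%). Under LD no member differed in space (2.16% and 2.72%), and 0 were higher and 4 lower on the ground (3.38% and 4.77%). Under SD, 131 of 137 estimates were below 0 in space (median −0.39, against −0.004 over all probe sets). On the ground 115 were above 0 (0.27, against 0.02). Under LD, 118 were above 0 in space (0.13, against −0.006) and 81 below 0 on the ground (median −0.11). The members share the same arrays, so these counts describe a direction only.

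Paralogs of 1 family had estimates that lay apart. In 35 families at least 2 tested paralogs had a probe set of their own. The distance between the highest and the lowest paralog had a median of 1.09 in FG and 1.02 in WT under LD on the log2 fold change scale, and it exceeded 1 in 20 families in FG and 19 in WT. The median distance was 1.21 among 60S and 1.06 among 40S families in FG, and 1.13 and 0.85 in WT. A called and an uncalled paralog stood side by side in 26 families in FG and 22 in WT, whereas every paralog was called in 2 families in FG and 0 in WT. The differences between paralogs were not tested. The same paralog had the highest estimate in FG and in WT in 28 of the 35 families (17 of the 21 families with 2 such paralogs), a description of 2 comparisons with no array in common.

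The L7, L18a and L36 families, all of the large subunit, had the widest distances in WT under LD among the 14 families with at least 3 such paralogs. In L7, L7-1 (AT1G80750) read 1121 and 1732 in WT-LD-sp, against 350 and 343 in WT-LD-gr (2.01 ± 0.48, called), and L7-2 (AT2G01250) was called at 1.40 ± 0.40. L7-4 (AT3G13580) read 2016 and 2451 in WT-LD-sp, against 2495 and 2366 in WT-LD-gr (−0.13 ± 0.34), and FG gave −0.10 ± 0.34. Thus 3 paralogs had estimates above 1 in both genotypes. That of L7-4 was within its SE of 0 and changed sign with spike-in scaling (0.37 in FG and 0.51 in WT).

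In the L18a family, L18a-2 (AT2G34480) read 8385 and 10220 in WT-LD-sp, against 4472 and 4426 in WT-LD-gr (1.06 ± 0.32, called). L18A-1 (AT1G29970) was the member with the lowest estimate in both genotypes under LD. It read 2120 and 2544 in WT-LD-sp, against 3108 and 6508 in WT-LD-gr (−0.95 ± 0.41, adjusted p = 0.123), and 2763 and 3508 in FG-LD-sp, against 3696 and 5702 in FG-LD-gr (−0.56 ± 0.41). All 4 of its LD arrays in space lay below the ground arrays of their genotype. L18a-3 (AT3G14600) gave 0.07 ± 0.33 in WT and 0.09 ± 0.33 in FG, and −0.27 and −0.20 under median centring.

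In the L36 family, L36-1 was called as given above, and L36-2 (AT3G53740) and L36-3 (AT5G02450) were not. L36-2 read 3767 and 4745 in WT-LD-sp, against 2838 and 3982 in WT-LD-gr (0.33 ± 0.40), with arrays that overlapped, and L36-3 gave 0.64 ± 0.41. Among the same 14 families, the narrowest distances in WT under LD were in S4, L27 and S10. In FG under LD the distance was 0.65 in S4, 0.62 in S10 and 1.51 in L27, and the narrowest was 0.44 in L31. The 3 paralogs of S4 gave 1.39 to 2.15 in WT, those of S10, including S10-2 (AT5G41520), gave 0.61 to 1.03, and those of L27 gave 0.70 to 1.38. Estimates were below 0 in WT under LD for L19-3, L7-4, S16-2, an L36a probe set that names AT4G14310 and AT4G14320, L39-2 and L18A-1, and in FG for L7-4, S16-2 and L18A-1, none of them called. With spike-in scaling only the estimates of L18A-1 stayed below 0 in either genotype.

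**Figure D4:**
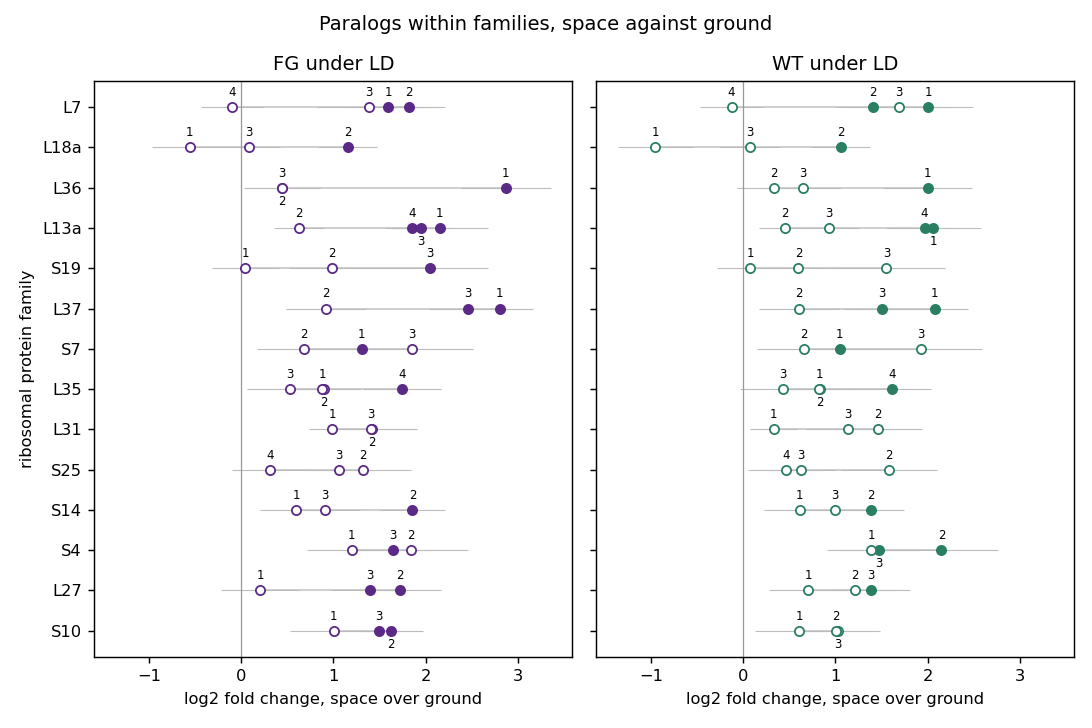
Log2 fold change, space over ground under LD, of each paralog in the 14 families with at least 3 tested paralogs on probe sets of their own, FG on the left and WT on the right. Numbers name the paralog, filled points were called, grey lines are ± 1 SE and families are ordered by their range in WT. L7-4, L18A-1 and L18a-3 lie at −0.13, −0.95 and 0.07 in WT, of which the first turns to 0.51 under spike-in scaling and the last to −0.27 under median centring, while L7-1, L7-2 and L18a-2 lie between 1.06 and 2.01.

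Members of lower mean signal had the higher estimates under LD. The 46 members with the lowest mean signals (under 1718) had a median log2 fold change of 1.61 in FG and 1.30 in WT under LD, the 45 in the middle 1.41 and 1.16, and the 46 above 3576 had 0.84 and 0.67. Calls numbered 21, 23 and 9 in FG and 14, 16 and 8 in WT, where 9.99%, 7.33% and 4.70% of all probe sets in the same ranges of signal were called higher in FG and 11.8%, 6.63% and 4.57% in WT. The medians over all probe sets in these 3 ranges were 0.11, −0.13 and −0.25 in FG and 0.14, −0.17 and −0.26 in WT. The part that the brightness of a probe set takes in this order was not tested.

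Several members are known from mutants. L5 (AT5G39740, RPL5B) binds the 5S rRNA, and plants without it have narrow leaves. It read 4368 and 4082 in FG-LD-sp, against 1715 and 596 in FG-LD-gr (2.06 ± 0.56, adjusted p = 0.0328), and 3557 and 4296 in WT-LD-sp, against 1502 and 672 in WT-LD-gr (1.96 ± 0.56, adjusted p = 0.034). L4-2 (AT5G02870), of the exit tunnel, rose in both genotypes (1.55 ± 0.35 and 1.44 ± 0.35), while its paralog L4-1 (AT3G09630) was not called (0.63 ± 0.30 and 0.42 ± 0.30).

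L10 is needed before the subunits can join. L10-3 (AT1G66580, RPL10C) was not called under LD, with 8566 and 9068 in FG-LD-sp, against 8118 and 5595 in FG-LD-gr (0.39 ± 0.32), and 7782 and 7699 in WT-LD-sp, against 6771 and 5885 in WT-LD-gr (0.29 ± 0.32). L10-2 (AT1G26910, RPL10B) read 652 and 578 in FG-LD-sp, against 255 and 275 in FG-LD-gr (1.21 ± 0.38, adjusted p = 0.0515), and 1.06 ± 0.38 in WT (adjusted p = 0.0722). Its arrays did not overlap, and neither estimate was called. S27-1 (AT2G45710), L28-1 (AT2G19730) and SA B (AT3G04770), which binds at the back of the small subunit, had uncalled estimates between 0.95 and 1.20 in both genotypes.

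Further cytosolic ribosomal proteins carry titles outside the rule, among them those of the P stalk, which recruits translation factors. Of 12 tested stalk probe sets, 6 rose in FG under LD and 4 in WT, with medians of 1.40 and 1.26, and none was called under SD (medians 0.25 in FG and 0.79 in WT). Over all probe sets tested, 9.46% were called higher in FG and 10.9% in WT under LD. AT2G27710, a P2 protein, gave 2.27 and 2.30. AT3G28500 had estimates of −1.76 ± 1.43 and −2.27 ± 1.43, not called. Of 19 others with known mutant or biochemical roles, 9 rose in FG and 6 in WT under LD (medians 1.28 and 0.97). RPL24A (AT2G36620) gave 2.50 and 2.26, both called, while STV1 (AT3G53020), the paralog required for reinitiation after upstream reading frames, gave 0.68 and 0.52, neither called. RPL23AA (AT2G39460) and RPL23AB (AT3G55280), near the exit of the tunnel, were called in both.

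Genes that build the ribosome had the highest median of these lists. Of 21 tested assembly factors and RNA polymerase I subunits, 12 rose in FG and 13 in WT under LD, with medians of 1.80 and 1.70, none fell, and none was called under SD (medians 0.85 and 0.89). Under LD, 9.46% of all probe sets in FG and 10.9% in WT were called higher, and 4.49% and 5.79% lower. FIB2 (AT4G25630), the methyltransferase of box C/D particles in the nucleolus, gave 3.68 ± 0.63 in FG and 3.59 ± 0.63 in WT, and NOP56 (AT1G56110), a core protein of the same particles, gave 3.43 ± 0.69 and 2.87 ± 0.69. NRPA1 (AT3G57660) and NRPA2 (AT1G29940), the largest subunits of RNA polymerase I, gave 1.89 and 2.45 in FG and 2.19 and 2.47 in WT.

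Of 7 tested genes of the TOR pathway, none rose, and S6K2 (AT3G08720), a kinase of the ribosomal protein S6, fell in both genotypes under LD (−2.27 ± 0.33, adjusted p = 0.00229, and −2.22 ± 0.33, adjusted p = 0.002). Over all probe sets tested, 4.49% in FG and 5.79% in WT were called lower under LD. TOR itself (AT1G50030) gave −0.77 ± 0.25 in FG (adjusted p = 0.0613) and −0.59 ± 0.25 in WT (adjusted p = 0.127). The pathway had medians of −0.68 in FG and −0.27 in WT under LD, and 0.15 and 0.33 under SD, with no call there.

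**Figure D5:**
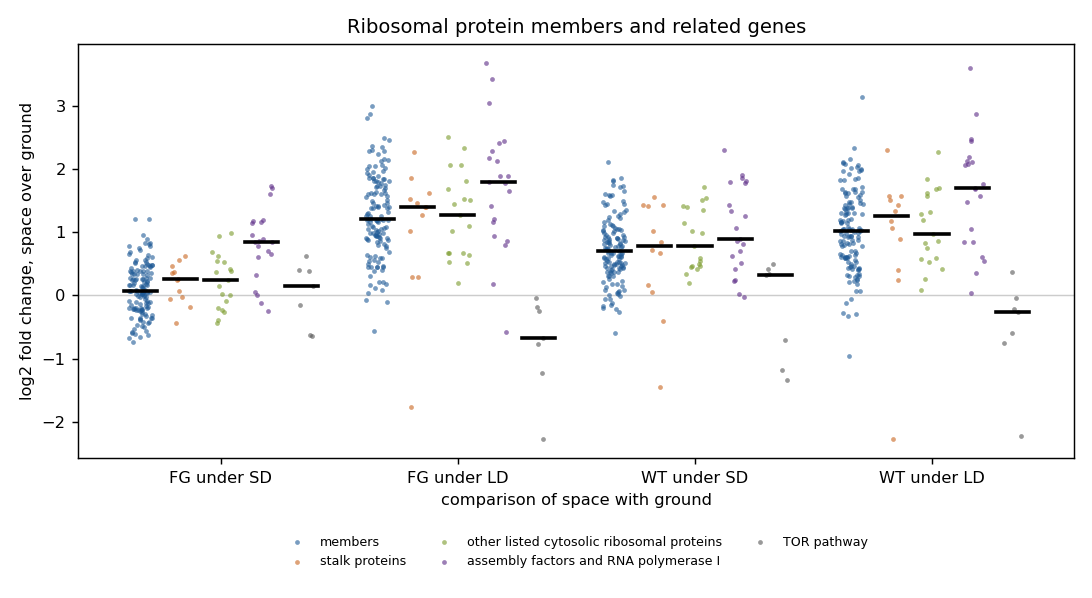
Log2 fold change, space over ground, of the 137 tested members and of 4 related lists (12 stalk proteins, 19 other cytosolic ribosomal proteins, 21 assembly factors and RNA polymerase I subunits, 7 TOR pathway genes) in the 4 comparisons, with a bar at each median. Under LD the medians of the first 4 lists lie between 0.97 and 1.80, and those of the TOR pathway at −0.68 and −0.27.

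Markers of dividing cells had a higher sum in space under LD, carried largely by TSO2 (AT3G27060), a subunit of ribonucleotide reductase. The summed signal over 10 genes was 693 to 1086 in FG-LD-sp, against 527 to 562 in FG-LD-gr, and 1049 to 1158 in WT-LD-sp, against 553 to 563 in WT-LD-gr, with 6 and 6 genes present in space and 3 and 2 on the ground. TSO2 itself read 387 and 574 in FG-LD-sp, against 190.1 and 257 in FG-LD-gr, and 789 and 615 in WT-LD-sp, against 215 and 191 in WT-LD-gr. Without it the sums overlapped in FG, at 305.4 to 512 in FG-LD-sp, against 305.2 to 337 in FG-LD-gr, and were 369.5 to 434 in WT-LD-sp, against 347.5 to 362 in WT-LD-gr. PCNA1 (AT1G07370) and MCM5 (AT2G07690), each present on 7 of the 16 arrays, were also higher in space in both genotypes without overlap. In FG-LD-sp PCNA1 read 103 and 156.5, against 30.4 and 36.8 in FG-LD-gr, and MCM5 read 58.1 and 74.5, against 30.9 and 53.3. In WT-LD-sp PCNA1 read 82.2 and 141, against 24.3 and 63.9 in WT-LD-gr, and MCM5 read 110 and 97, against 24 and 26.4. KNOLLE (AT1G08560) was lower in space in FG and higher in WT. CDKB2;2 (AT1G20930), a kinase of the step into mitosis that was present on 4 of the 16 arrays, had lower signals in space in WT, with 48 and 33 in WT-LD-sp, against 137 and 153.5 in WT-LD-gr. Under SD the sums were 534 to 569.6 in FG-SD-sp, against 578 to 939 in FG-SD-gr, and 690 to 713 in WT-SD-sp, against 745 to 1257 in WT-SD-gr. CDKB2;2 entered these sums with 651 and 153 in WT-SD-gr, against 77.1 and 57.6 in WT-SD-sp. MCM5 went the other way, at 80.3 and 83.6 in WT-SD-sp, against 3.3 and 38.7 in WT-SD-gr. The PCNA1 arrays of WT under SD overlapped, at 66.7 and 131 in space, against 5.3 and 69.7 on the ground. CYCB1;1 (AT4G37490), which marks mitosis, had no present call on any array. The part of dividing cells in the result was not tested.

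The 2 mitochondrial probe sets did not follow the nuclear members. L2 gave −0.36, −0.18, −0.65 and −0.63 and the mitochondrial L5 gave −0.27, −1.20, −0.75 and −0.72, both in the order FG-SD, FG-LD, WT-SD and WT-LD, none of them called.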

How the data were processed

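Arrays were hybridized with leaf RNA, 2 per group. The authors computed MAS5 signals and detection calls and deposited log2 signals that they had scaled to a trimmed mean. MAS5 is named in the submitters' processing notes, its version not given in the sources used here. In the deposited log2 values, signals under 75 were set to 75, and 14286 of 22810 probe sets with both arrays of some group above it were kept. With limma 3.58.1 in R 4.3.3, 1 mean per group was fitted over all 16 arrays (8 residual and 2.75 prior degrees of freedom), checked on simulated data. The comparisons were contrasts of that model. Calls needed a Benjamini-Hochberg adjusted p under 0.05 over all kept probe sets and at least 2-fold. The number of arrays limits the precision. Where a group lay under the floor on both arrays, its fold is a bound.

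Members, gene lists and tests were chosen with earlier results of these data known, and support nothing independently. Named were, per subunit and comparison of space with ground, up to 5 called members with the largest rise, members known from mutants, all members called in SD against LD, families with the widest and narrowest ranges, and up to 5 members under the floor. Other names were chosen after their values were seen. The alternatives were other scalings, floors, filters, fits and array weights, the 2-group t-test, and leaving out each array. Tables and figures used python 3.11.15, pandas 2.3.3, numpy 2.4.6 and matplotlib 3.10.9. No sequence is shown.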

Additional observations from a re-analysis of the deposited data

Results flagged for a closer look

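In 4 members every array of one condition moved away from the ground and every array of the other moved the opposite way. L39-2 (AT3G02190), a small protein of the exit tunnel, gave 0.60 in FG and −0.33 in WT under LD (log2 fold change, space over ground), a difference of 0.93 ± 0.36 (SE) with a limma adjusted p of 0.764. The L36a probe set that names AT4G14310 and AT4G14320 gave 0.18 in FG and −0.29 in WT under LD (difference 0.47 ± 0.39, limma adjusted p = 1).

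In FG plants, L13-3 (AT5G23900) gave −0.73 under SD and 0.84 under LD, and the interaction was −1.58 ± 0.67 (limma adjusted p = 0.298). L13a-2 (AT3G24830) gave −0.39 under SD and 0.63 under LD (−1.02 ± 0.39, limma adjusted p = 0.247). None of the 4 differences passed the test.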

How the results depend on the processing

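No called estimate of a member named or listed changed sign under an alternative, whereas 18 estimates that were not called (adjusted p of 0.35 or more) did. Under median centring these were, under LD, L10-3 (−0.048) and L36-2 (−0.012) in WT, L18a-3 in FG (−0.196) and WT (−0.267), and L27-1 (−0.078) and the L36a probe set of AT4G14310 and AT4G14320 (−0.104) in FG. Quantile normalization turned this L36a probe set in FG (−0.030) and L19-3 in WT (0.043). Spike-in scaling turned L7-4 (0.369 in FG and 0.513 in WT), S16-2 (0.392 and 0.365), and, in WT, the L36a probe set (0.293), L19-3 (0.585) and L39-2 (0.310), and L13a-2 in FG under SD (0.120). Leaving out 1 array gave −0.041 to 1.82 for L9-2 and −0.412 to 0.673 for S17-3 in FG under SD. Under LD in FG it gave −0.344 to 0.146 for L7-4, −0.065 to 0.239 for L18a-3, −0.061 to 0.949 for L36-3, −0.089 to 0.98 for L36-2, −0.029 to 0.44 for L27-1 and −0.167 to 0.016 for S16-2, and in WT −0.269 to 0.013 for L7-4 and −0.132 to 0.282 for L18a-3. The cause was not tested.

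Counts of called members, given for space against ground in FG under LD (53), WT under LD (38) and WT under SD (3), then SD against LD in space in FG (5) and WT (1), moved as follows. Fitting only the arrays compared gave 4, 0, 0, 0 and 0. Without the filter they were 24, 8, 0, 1 and 1, and without the floor 40, 24, 0, 0 and 0. With log2(signal + 32) they were 51, 35, 0, 2 and 0, and with array weights 70, 36, 0, 40 and 10. The 2-group t-test gave 22, 47, 20, 1 and 9, plus 1 on the ground in WT for SD against LD, and 0 in each after Benjamini-Hochberg adjustment. Quantile normalization gave 58, 43, 0, 9 and 0, median centring 39, 20, 0, 1 and 0, and scaling to the spike-in probe sets 94, 96, 45, 3 and 1, with 2 in FG under SD. Of 14459 probe sets tested under spike-in scaling, 2841, 4057 and 2771 were called higher in the first 3 comparisons, and 1286 in FG under SD. Quantile normalization called 1156, 1325 and 60 of 14272 higher in those 3, and median centring 859, 958 and 47 of 14322. Shares over all probe sets under the remaining alternatives are not given here.

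Under median centring the WT medians under LD were 0.743 for 60S and 0.625 for 40S members. Under spike-in scaling they were 1.726 and 1.595, those of WT under SD 1.370 and 1.214, and the 40S median of FG under SD 0.583. The median of all members in FG under SD, 0.07, turned to −0.04 under median centring. The members' median minus that of all probe sets stayed between 1.07 and 1.32 in FG and between 0.87 and 1.07 in WT under LD. Over all probe sets, 1352 higher and 642 lower calls in FG under LD became 859 and 1054 under median centring and 2841 and 280 under spike-in scaling, and 1559 and 827 in WT became 958 and 1450, and 4057 and 340.

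Leaving out 1 array gave 8 to 79 calls in FG under LD, 2 to 52 in WT under LD, 0 to 6 in WT under SD, 1 to 21 and 0 to 1 for SD against LD in space in FG and WT, and 0 to 3 for the daylength interaction in FG. A group left with 1 array was assumed to vary like the others. The 60S medians ran from 0.800 to 1.877 in FG under LD and from 0.511 to 1.017 in WT under SD, and the 40S medians from 0.310 to 0.961 in WT under SD and from 0.730 to 1.144 in WT under LD.

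Deviations of same-numbered arrays correlated at −0.278 to 0.502 between groups, with no common sign. The highest value was between WT-SD-gr and WT-LD-sp. The main fit did not pair the arrays, and whether some same-numbered arrays shared a step was not tested. With the replicate number as a block, 51, 32, 2, 4 and 1 members were called.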
